A study of Rattus norvegicus with 24 samples.

Results

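The 7 genes described here are markers of mast cells: the proteases Tpsab1, Cpa3 and Cma1, the growth factor receptor Kit, the IgE receptor subunits Fcer1a and Ms4a2, and the histamine-making enzyme Hdc. They were measured in thyroids from adult Sprague-Dawley rats, all male. A member was any probe set (a group of short probes for 1 transcript) whose only annotated gene symbol was 1 of these 7, which gave 8 probe sets of the 31042 on the array that are not controls. Each gene was represented by its brightest probe set. Of the 7 genes of 14217 named on the array, 6 passed the filter on low signal, and Kit did not.

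Mast cells are tissue-resident immune cells that mature in connective tissue and mucosa, often beside small vessels. They store tryptase, chymase, carboxypeptidase and histamine in granules, and release them when antigen cross-links IgE held by the high-affinity receptor on their surface. In the thyroid they lie in the stroma between the follicles.

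The 24 samples of total RNA fell into 8 groups of 3, each sample on its own Affymetrix array. The animals were controls on normal food and normal water, animals on an iodine-deficient diet with normal water, animals on normal food with 95 mg of potassium perchlorate per liter of drinking water, and animals with the deficient diet and that water together. Each treatment was sampled at 1 day and at 14 days. Perchlorate competes with iodide for uptake into thyroid follicular cells, and the deficient diet limits the supply of iodide.

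All animals were housed for 2 months plus the 1 or 14 days. The sample labels give the diet as lasting that whole period, so the diet groups of day 1 had been on it for 2 months, whereas perchlorate lasted only the 1 or 14 days. Whether the samples of a group are different animals is not stated in the labels, and the p-values therefore cover only the spread among these samples, part of which may be technical. In RNA of a whole tissue, fewer cells of a type and less RNA per cell cannot be told apart.

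Markers of the labelled tissue were bright: 7 of the 8 follicular cell markers listed were on the array under 1 symbol, all 7 passed the filter, and their summed intensity lay between 40387 and 49241 on the 24 arrays. Within groups, arrays correlated at 0.924 to 0.983 over probe sets (median 0.979) and no 2 arrays were the same. The array least like the rest was perchlorate replicate 18 of day 1, whose median absolute deviation from the other arrays was 0.523. Control replicate 22 of day 1 followed at 0.282. Some results that rest on these arrays are given with and without them, and the others only with them. The precision of every value is limited by the 3 arrays per group.

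Of the 6 genes found in a RefSeq promoter table, 3 hold a GATA motif in the 250 bases before the start site, and these are shown because GATA2 is a transcription factor of mast cells. The motif was searched on both strands as AGATAA and in its variant form AGATAG. It was searched in the same way as TGATAA and in the form TGATAG, and capitals mark each match. The sequences are RefSeq's on assembly GRCr8, all from genes on the minus strand, written 5′ to 3′ on the gene's strand. The promoter of Cpa3 lies at chr2:104673238-104673487, that of Cma1 at chr15:33390134-33390383, that of Fcer1a at chr13:88224680-88224929, and that of Tpsab1 at chr10:14867303-14867552, shown for contrast because it holds no match.
Cpa3: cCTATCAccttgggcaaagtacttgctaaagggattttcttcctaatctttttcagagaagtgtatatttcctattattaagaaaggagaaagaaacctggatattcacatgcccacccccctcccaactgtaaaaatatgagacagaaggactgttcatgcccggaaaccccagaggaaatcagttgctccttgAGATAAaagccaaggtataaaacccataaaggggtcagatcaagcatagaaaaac
Cma1: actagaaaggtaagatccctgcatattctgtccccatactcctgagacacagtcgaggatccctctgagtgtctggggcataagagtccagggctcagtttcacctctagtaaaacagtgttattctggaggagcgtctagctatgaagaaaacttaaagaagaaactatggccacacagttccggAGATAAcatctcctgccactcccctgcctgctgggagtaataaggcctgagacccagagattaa
Fcer1a: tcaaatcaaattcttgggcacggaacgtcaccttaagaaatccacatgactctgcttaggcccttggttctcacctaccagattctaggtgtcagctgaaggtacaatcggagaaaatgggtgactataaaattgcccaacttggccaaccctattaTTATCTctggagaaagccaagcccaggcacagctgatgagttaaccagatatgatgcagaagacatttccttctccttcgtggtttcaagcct
Tpsab1: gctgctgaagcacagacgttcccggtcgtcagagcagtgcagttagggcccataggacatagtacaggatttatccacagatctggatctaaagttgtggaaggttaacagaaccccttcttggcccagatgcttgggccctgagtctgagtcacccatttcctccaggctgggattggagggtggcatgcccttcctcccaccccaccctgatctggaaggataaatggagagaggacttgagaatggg

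Counted from the start site, Cpa3 held matches at -249 and -55, Cma1 held 1 at -64 and Fcer1a held 1 at -93. Kit and Hdc held none, and Ms4a2 is named only. The motif occurs in 27.02% of the 33465 promoters of this length in the table, against 3 of the 6 members found there. The E-box letters CACATG on either strand, or the palindrome form CACGTG, which the mast cell factor MITF binds, occurred in Cpa3 and Fcer1a, 2 of 6, against 17.13% of all promoters. A match is a description of letters and not a site or a cause.

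Values below are log2(intensity + 16) after quantile normalization of the 24 arrays unless said otherwise, differences are on that scale, and ± is the SD of 3 arrays. Adjusted p-values are limma's, with Benjamini-Hochberg adjustment over all 18625 probe sets tested, and a gene was called at an adjusted p under 0.05. The filter stood at 6.19 on the log2 scale, and Tpsab1 passed it with a mean of 6.53. Only 4 of its 8 group means were above that value. Its mean without its highest group, 6.28, also passed, but that mean still held the perchlorate group of day 14 (8.13). Without both the perchlorate and the combined group of day 14, its mean lay below the filter. Tpsab1 thus passed only through the groups in which it was high, which limits every test of it that uses them. Its day 14 calls against control were also made in the fit with no filter. Hdc (mean 6.43) had 6 of 8 group means above it, Ms4a2 7 of 8, and Cpa3, Cma1 and Fcer1a 8 of 8. Kit had 0 of 8.

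Among the proteases, Tpsab1 (probe set 1387162_at), which encodes the granule tryptase, varied most between groups. At day 14 the control arrays read 5.33, 5.80 and 6.49, and the perchlorate arrays 7.57, 7.78 and 9.04. The arrays given diet plus perchlorate read 7.70, 8.35 and 8.76, and those on the diet alone 6.79, 7.10 and 7.37. Every treated array of day 14 thus lay above every control array of that day, and the diet arrays lay below all arrays that had perchlorate. In deposited intensity, the control mean was 43.2 ± 21.6 (SD, n = 3) and the perchlorate mean 310.6 ± 203.3.

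Tpsab1 rose by 2.26 (SE 0.50, 95% interval 1.23 to 3.29) with perchlorate at day 14, at an adjusted p of 0.0119 in limma. With diet plus perchlorate it rose by 2.40 (SE 0.50, 1.37 to 3.43), at an adjusted p of 0.00358. The control mean of 5.87 lay below the filter and the pseudocount compresses dim values, so no fold is given. The diet alone gave 1.22 (SE 0.50, 0.18 to 2.25), which was not called (adjusted p 0.401). The call with both treatments held under all 14 alternative settings tried. The call with perchlorate alone held under 12 of 14: it was lost without perchlorate replicate 42 (1.80, adjusted p 0.0978) and without control replicate 44 (1.99, adjusted p 0.0735).

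Cpa3 (1371151_at) encodes the mast cell carboxypeptidase, which is stored beside the other granule proteases. Its day 14 control arrays read 8.91, 9.10 and 9.63, and the perchlorate arrays 9.63 to 11.71. Diet plus perchlorate gave 9.68, 10.23 and 10.67, and the diet alone 9.38, 9.98 and 10.64. The perchlorate and combined arrays lay above the controls, the lowest perchlorate array by less than the rounding shown, and the diet arrays overlapped them. The differences were 1.23 with perchlorate (SE 0.47, adjusted p 0.194), 0.98 with both (adjusted p 0.235) and 0.79 with the diet (adjusted p 0.684), and none was called.

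Cma1 (1387173_at) encodes chymase, the chymotrypsin-like protease of the granules. Its day 14 controls lay close together at 7.62, 7.64 and 7.87, against 8.31, 9.08 and 10.45 with perchlorate. Diet plus perchlorate gave 8.29, 9.38 and 9.44, and the diet alone 8.22, 8.81 and 9.30. All 9 treated arrays were higher than all 3 controls, with a much wider spread among the treated. The difference was 1.57 with perchlorate (SE 0.44, interval 0.65 to 2.49, adjusted p 0.0507), just short of a call. It was 1.33 with both (adjusted p 0.0658) and 1.07 with the diet (adjusted p 0.412). The perchlorate difference was called under 4 of 14 alternatives. In 1 of them the 2 arrays of day 1 that stood apart were left out (1.57, adjusted p 0.0425). Over the 14 it ran from 0.99 to 2.06, with an adjusted p of up to 0.356.

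The IgE receptor consists of an alpha chain that binds IgE, encoded by Fcer1a, a beta chain that amplifies the signal, encoded by Ms4a2, and a shared gamma chain. Fcer1a (1387713_a_at) read 7.23, 7.31 and 7.64 in the day 14 controls and 8.22, 8.37 and 9.36 with perchlorate. It read 7.94, 8.40 and 8.64 with both treatments and 8.03, 8.38 and 8.52 with the diet. As for Cma1, all 9 treated arrays stood above the controls. The differences were 1.25 (SE 0.36, adjusted p 0.0585) with perchlorate, 0.93 (adjusted p 0.124) with both and 0.91 (adjusted p 0.37) with the diet. The first was called under 4 of 14 alternatives. In 1 of them the 2 arrays of day 1 that stood apart were left out (1.25, adjusted p 0.0282). Over the 14 it ran from 0.90 to 1.47, with an adjusted p of up to 0.352.

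Ms4a2 (1369399_at) read 6.75, 6.93 and 7.08 in the day 14 controls and 7.35, 7.73 and 8.17 with perchlorate. With both treatments it read 7.05, 7.71 and 7.75, and with the diet 7.17, 7.35 and 7.50. The perchlorate and diet arrays did not overlap the controls, and 1 combined array did. The differences were 0.83 (SE 0.31, adjusted p 0.174), 0.58 (adjusted p 0.29) and 0.42 (adjusted p 0.777) in that order of perchlorate, both and diet. A second Ms4a2 probe set, 1370783_a_at, was dim, with values of 4.09 to 5.49 on the 24 arrays, and did not pass the filter.

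Hdc (1370491_a_at) encodes histidine decarboxylase, which makes histamine from histidine. It read 6.29, 6.40 and 6.40 in the day 14 controls, 6.73, 6.76 and 7.28 with perchlorate, 6.37, 6.65 and 7.20 with both, and 6.19, 6.70 and 6.77 with the diet. Only the perchlorate arrays lay wholly above the controls. The difference was 0.56 (SE 0.21, interval 0.11 to 1.00, adjusted p 0.194) with perchlorate, smaller in value than for the proteases, and 0.38 with both (adjusted p 0.331).

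Kit (1369822_at) encodes the receptor for stem cell factor, on which mast cells depend for survival, and it is also made by other cells such as melanocytes. Its probe set was dim, at the 15.8th percentile of mean signal, and values over the 24 arrays ran from 4.22 to 5.41. At day 14 it read 4.49, 4.76 and 4.78 in controls and 5.17, 5.36 and 5.40 with perchlorate. Those groups did not overlap, but the combined arrays at 4.38, 4.50 and 5.14 and the diet arrays at 4.22, 4.64 and 4.92 did overlap the controls. In a fit of all probe sets without the filter, the perchlorate difference was 0.63 (SE 0.25, adjusted p 0.301) and that of both treatments -0.0047 (adjusted p 0.998). As Kit did not pass the filter, it could not be called in any of the 21 comparisons, whatever its p-value. The 5 melanocyte markers on the array, of which 2 passed the filter, summed to 306 to 383 in the day 14 controls and to 430 to 512 with perchlorate. They summed to 360 to 551 with both treatments and to 297 to 385 with the diet. Their part in the Kit values was not tested.

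**Figure D1:**
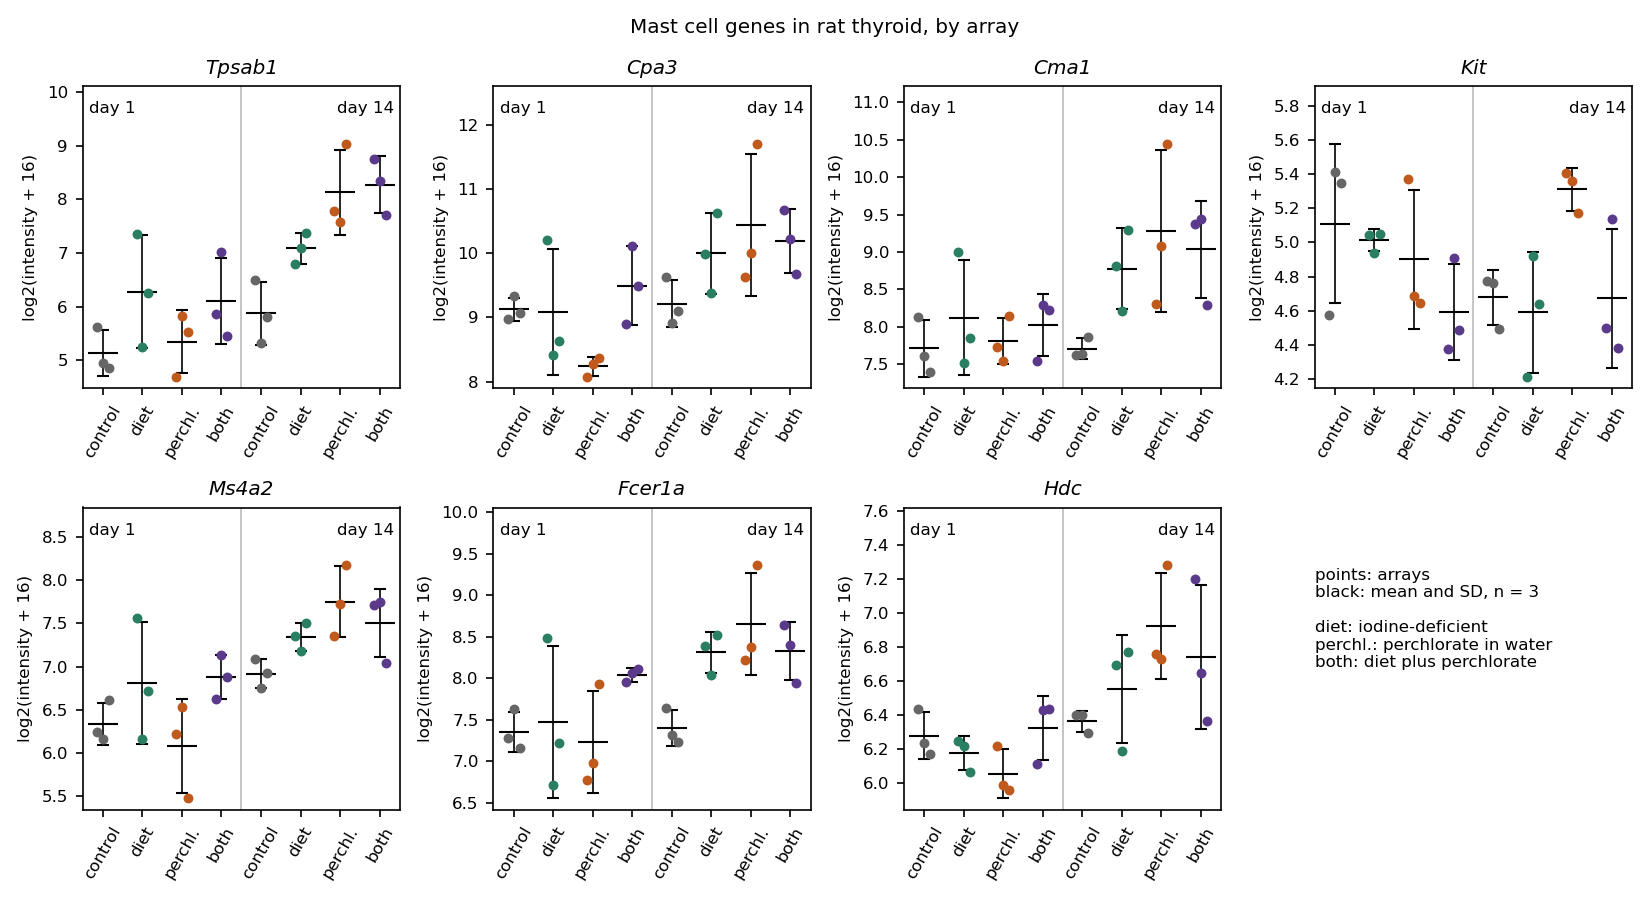
Each panel shows 1 of the 7 genes, with log2(intensity + 16) on the y axis and the 8 groups on the x axis (day 1 left of the line, day 14 right); points are arrays, black marks the mean and SD (n = 3). Perchlorate at day 14 had the highest group mean for 6 of the 7 genes, and diet plus perchlorate at day 14 had it for Tpsab1.

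Across the 6 tested genes at day 14, perchlorate gave 1 called gene, Tpsab1, against 3.57% of all probe sets called in either direction. All 6 differences were positive, with a median of 1.24 against -0.04 over all probe sets. In all 6 the perchlorate arrays lay above the control arrays without overlap, against 12.6% of probe sets that did so. Diet plus perchlorate gave 1 called gene, again Tpsab1, against 8.85% of probe sets. All 6 were positive, with a median of 0.95 against -0.06, and 4 of 6 did not overlap the controls, against 16.2%. The diet alone gave 0 called genes in limma, against 0.22% of probe sets, although 3 of 6 (Tpsab1, Cma1 and Fcer1a) had an unadjusted p under 0.05, against 9.51%. All 6 were positive there too, with a median of 0.85 against -0.02, and 4 of 6 did not overlap, against 10.6%. These 3 comparisons share the 3 control arrays of day 14. The members also varied together on the same arrays, with correlations of 0.39 to 0.87 after subtraction of group means. The 6 are therefore not 6 separate results.

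The order of the 8 group means could be resolved only in part. For Tpsab1 the top groups were diet plus perchlorate (8.27 ± 0.53) and perchlorate (8.13 ± 0.79) at day 14, and the drop to the diet at day 14 (7.09 ± 0.29) was larger than the SD of either neighbour. That was the only 1 of its 7 steps between neighbours that was. For Ms4a2 the step from the diet at day 14 (7.34 ± 0.17) down to the control at day 14 (6.92 ± 0.17) exceeded the SDs. For Fcer1a it was the step from the diet at day 14 (8.31 ± 0.25) to diet plus perchlorate at day 1 (8.04 ± 0.08). For Cpa3, Cma1, Hdc and Kit, 0 of 7 steps exceeded the spread of the neighbouring groups. The lowest mean was that of day 1 perchlorate for Cpa3 (8.24 ± 0.15), Ms4a2 (6.08 ± 0.54), Fcer1a (7.23 ± 0.61) and Hdc (6.05 ± 0.14).

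At day 1 no member was called in any of the 3 comparisons with control. With perchlorate, 0 of 6 were called in limma against 0% of all probe sets (1888 of them, 10.1%, had an unadjusted p under 0.05, and 0 of the 6 members did). The differences ran from -0.89 for Cpa3 to 0.21 for Tpsab1, with a median of -0.18 against -0.02. Cpa3 was the member that stood apart: its perchlorate arrays read 8.08, 8.27 and 8.37 and its control arrays 8.98, 9.08 and 9.33. The groups did not overlap, as for 4.21% of probe sets in that direction, but the difference had an interval of -1.88 to 0.09 (adjusted p 0.517). Without the 2 arrays that stood apart the difference was -0.85 (adjusted p 0.958).

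In the day 1 animals the deficient diet alone gave 0 called members in limma against 0.0537% of probe sets, and 1 of 6, Tpsab1, had an unadjusted p under 0.05, against 5.85%. The Tpsab1 arrays read 5.24, 6.24 and 7.36 on the diet and 4.84, 4.94 and 5.62 in control, and they overlapped. The difference was 1.15 (SE 0.50, interval 0.12 to 2.18, adjusted p 0.8). Without the 2 arrays that stood apart it was 1.05 (adjusted p 0.701). Replicate 8 of the diet group was the highest array for all 6 tested members, for example 10.21 for Cpa3 beside 8.42 and 8.63. Diet plus perchlorate at day 1 gave 0 called members in limma against 0.601% of probe sets, and 0 of the 6 had an unadjusted p under 0.05, against 10.6%. All 6 differences were positive, with a median of 0.45 against -0.01. Fcer1a (7.95, 8.06 and 8.11 against 7.16, 7.28 and 7.63) and Ms4a2 (6.62, 6.88 and 7.13 against 6.16, 6.24 and 6.62) did not overlap the controls (Ms4a2 by less than the rounding shown), 2 of 6 against 7.94%.

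**Figure D2:**
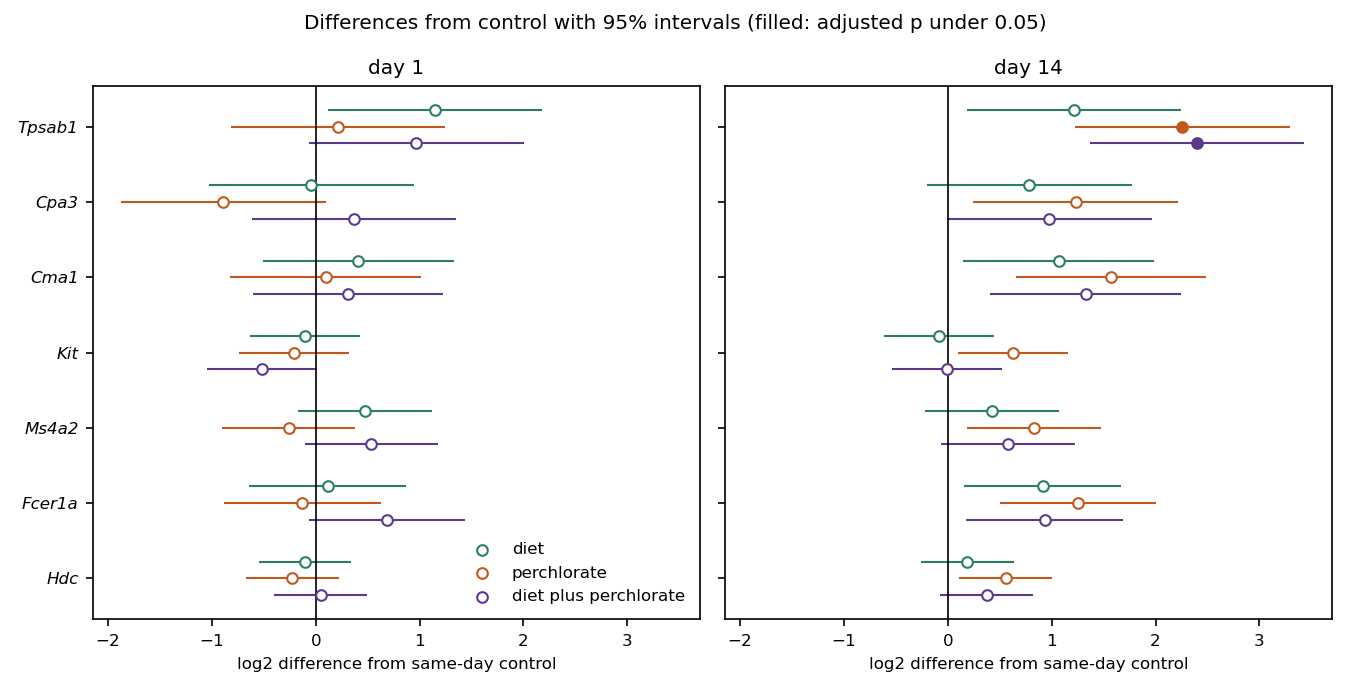
Log2 differences of each treatment from the control of the same day for the 7 genes, with day 1 on the left and day 14 on the right; bars are 95% intervals, filled points have an adjusted p under 0.05, and Kit comes from the fit without the filter. The only filled points are Tpsab1 at day 14, at 2.26 with perchlorate and 2.40 with diet plus perchlorate.

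How much each treatment added to the other at day 14 was tested directly. Perchlorate added to the diet gave 0 called members in limma against 0.209% of probe sets, and only Tpsab1 had an unadjusted p under 0.05, against 7.96%. The Tpsab1 difference was 1.19 (SE 0.50, interval 0.16 to 2.22, adjusted p 0.517), while the others lay between 0.02 for Fcer1a and 0.26 for Cma1. The Fcer1a interval of -0.74 to 0.77 leaves room for a change in either direction. The diet added to perchlorate gave 0 called members in limma against 0.00537%, with differences from -0.32 for Fcer1a to 0.14 for Tpsab1, and 0 of 6 had an unadjusted p under 0.05, against 2.59%.

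At day 1, perchlorate added to the diet gave 0 called members in limma against 0.00537% of probe sets, and 0 of 6 had an unadjusted p under 0.05, against 5.84%. The diet added to perchlorate at day 1 gave 0 called in limma against 3.66%, while 3 of 6 had an unadjusted p under 0.05, against 23.3%. These were Cpa3 (1.26, adjusted p 0.12), Ms4a2 (0.80, adjusted p 0.131) and Fcer1a (0.81, adjusted p 0.182), and that comparison holds the perchlorate replicate 18 that stood apart. Without the 2 arrays that stood apart, 0 of 6 were called there as well.

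Averaged over both diets, perchlorate at day 14 gave a Tpsab1 rise of 1.72 (SE 0.35, interval 0.99 to 2.45, adjusted p 0.00467), the 1 member called against 6% of probe sets. The high side of this comparison is the groups through which Tpsab1 passed the filter, which limits the test. The call held under all 20 alternatives, the fit with no filter among them. Cma1 followed at 0.92 (adjusted p 0.0928). Averaged over both waters, the diet gave 0.0025 for Hdc to 0.68 for Tpsab1. None of the 6 was called in limma, against 0.0644% of probe sets, and 0 had an unadjusted p under 0.05, against 8.94%. The interaction, which asks whether the combined effect differs from the sum of the separate effects, was negative for all 6 at day 14, from -1.31 for Cma1 to -0.37 for Hdc. None was called in limma (adjusted p 1 for all 6, against 0.0161% of probe sets called), and 2 of 6, Cma1 and Fcer1a, had an unadjusted p under 0.05, against 3.11%. At day 1 the interaction ran from -0.39 for Tpsab1 to 1.30 for Cpa3, with 0 called in limma against 0.0107% and 0 of 6 at an unadjusted p under 0.05, against 9.1%.

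Of the 21 comparisons, the one between the 2 times of perchlorate treatment gave the most calls. Between day 1 and day 14 of perchlorate, 5 of 6 members rose in limma, against 5.17% of probe sets called in either direction. Tpsab1 rose by 2.78 (SE 0.50, adjusted p 0.00267), from 4.69, 5.52 and 5.82 to the day 14 values above. Cpa3 rose by 2.21 (SE 0.47, adjusted p 0.00935) and Ms4a2 by 1.67 (SE 0.31, adjusted p 0.00322). Ms4a2 had read 5.48, 6.22 and 6.53 at day 1, below all of its day 14 arrays. Fcer1a rose by 1.42 (adjusted p 0.0243) and Hdc by 0.87 (adjusted p 0.0215), and Cma1 differed by 1.47 (adjusted p 0.0556). In all 6 the arrays of the 2 days did not overlap, against 10.1% of probe sets higher without overlap. Lymphocyte markers summed to 574, 3871 and 8359 on the day 1 perchlorate arrays and to 708 to 937 at day 14. Their part in these calls was not tested.

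These calls leaned on particular arrays. Without perchlorate replicate 42 of day 14, which was the highest array of its group for all 6 members, Cpa3 (1.58, adjusted p 0.0755), Fcer1a (1.07, adjusted p 0.166) and Hdc (0.69, adjusted p 0.145) were no longer called, which left 2 calls. Without the 2 arrays of day 1 that stood apart, 4 of the 5 calls held, and Hdc (0.82, adjusted p 0.0573) did not. The same Hdc call was lost without perchlorate replicate 18 alone. In that fit Tpsab1 differed by 2.87 and Ms4a2 by 1.37, both still called. When the 2 groups were fitted on their own, with fewer arrays to estimate the spread, 0 of 6 were called. The second, dim Ms4a2 probe set was not called between the days in the fit without the filter (0.55, adjusted p 0.332).

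In the other groups fewer members were called between the days. In controls 0 of 6 members were called in limma, against 0% of probe sets (4.11% at an unadjusted p under 0.05, and 0 of the 6), with differences of -0.0049 for Cma1 to 0.74 for Tpsab1. On the diet alone 0 of 6 were called in limma against 0.00537%, with differences of 0.38 for Hdc to 0.91 for Cpa3, and 1 of 6, Fcer1a, had an unadjusted p under 0.05, against 3.56%. With both treatments Tpsab1 rose by 2.17 (adjusted p 0.0272), the 1 member called against 1.83% of probe sets, but the call held under only 8 of 14 alternatives. It was lost without any 1 of replicates 2, 6, 27, 29 and 30 (adjusted p 0.05 to 0.179) and with a pseudocount of 1 (adjusted p 0.0518).

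Whether the perchlorate effect itself differed between day 14 and day 1 was tested as a difference of differences. For all 6 it was positive, from 0.78 for Hdc to 2.12 for Cpa3, with a median of 1.43. None was called in limma (adjusted p 0.167 to 0.334, against 0.553% of probe sets called), and all 6 had an unadjusted p under 0.05, against 12.3%. These values use the 2 arrays of day 1 that stood apart and are given only with them. The same difference for the diet ran from -0.05 to 0.83, with 0 called in limma against 0% and 0 of 6 at an unadjusted p under 0.05, against 2.7%. For both treatments it ran from 0.05 to 1.43, again with 0 called against 0% in limma and 0 of 6 at an unadjusted p under 0.05, against 8.72%.

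On 10 of the 24 arrays all 6 members lay on the same side of their group mean, and on the other 14 they were mixed. In 3 of the 8 groups, perchlorate and control at day 1 and control at day 14, all arrays were mixed. All 6 lay above their group mean on perchlorate replicate 42 of day 14 (mean deviation 0.80), diet replicate 8 of day 1 (0.82), diet plus perchlorate replicate 27 of day 14 (0.38) and replicate 3 of day 1 (0.36), and diet replicate 34 of day 14 (0.34). None of the 6 lay above it on diet plus perchlorate replicate 30 of day 14 (-0.51) or on perchlorate replicates 39 (-0.52) and 40 (-0.28) of day 14, and 5 arrays were of that kind. The 3 deviations within a group sum to 0, so a high array makes the other arrays of its group low.

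**Figure D3:**
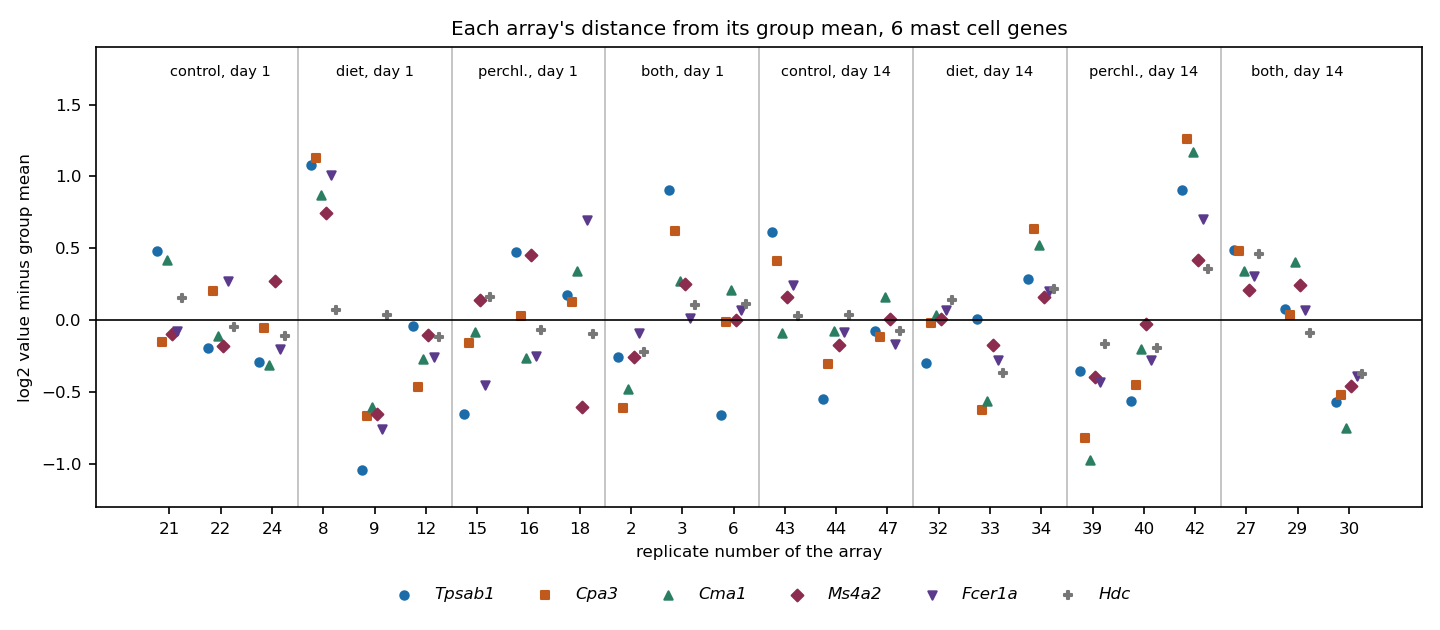
Log2 value minus group mean (y axis) for the 6 tested genes on each of the 24 arrays (x axis, replicate numbers, groups divided by lines); each symbol is 1 gene. On 5 arrays all 6 symbols lie above 0, with mean deviations of 0.34 to 0.82, on 14 they lie on both sides, and the spread is wide at perchlorate replicates 39, 40 and 42 of day 14.

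As a description across the 24 arrays, which share the group differences and the normalization, Pearson correlations between pairs of members ran from 0.73 (Fcer1a and Hdc) to 0.90 (Cpa3 and Fcer1a). After subtraction of group means they ran from 0.39 (Tpsab1 and Hdc) to 0.87 (Cpa3 and Cma1). Among the 10642 other named genes past the filter, the 5 most like Fcer1a in pattern over the 24 arrays were Cpa3 (0.90), Hsd11b1, Cma1, Clec4a3 and Tifa. Those most like Cpa3 were Colec12 (0.91), Fcer1a, Cd48, Ms4a2 and Cma1. For Cma1 they were Fcer1a (0.88), Cpa3, Tlr7, Serpinb1a and Tpsab1, and for Ms4a2 Tlr8 (0.88), Cpa3, Selenop, Tpsab1 and Prrx1. Cpa3 was also the gene most like Hdc (0.85), ahead of Csf1r, Cma1, Col3a1 and Ccdc80.

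Tpsab1 differed in its nearest genes. The 5 were Tlr7 (0.91), Ctss, Cybb, Rab31 and Plek, of which none is a member. The members nearest to it were Ms4a2 at rank 21 (0.87), Cma1 at rank 32 (0.85) and Cpa3 at rank 62 (0.84). These ranks moved without the 2 arrays that stood apart. For Tpsab1, Tlr7 then ranked 2 (0.92), Plek 6, Cybb 11, Rab31 17 and Ctss 20. The member Ms4a2 moved closer to Tpsab1, at 0.906, between Plek (0.907) and Cybb (0.904). For Ms4a2, Tlr8 fell to rank 12 and Prrx1 to rank 59, while Cpa3 remained at rank 2 (0.92). For Cpa3, Colec12 moved to rank 4 and Fcer1a to rank 1. For Fcer1a, Cpa3 remained first (0.94), and for Hdc it became second to Cma1. Tlr7 encodes a receptor for single-stranded RNA, Ctss a lysosomal cysteine protease and Cybb the catalytic subunit of the phagocyte oxidase.

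Among the other genes of mast cells, a list of 25 names had 20 on the array and 14 past the filter. At day 14, 5 of 14 rose with perchlorate (median 0.57) and 5 with both treatments (median 0.62), beside the 3.57% and 8.85% of all probe sets called. With the diet 0 of 14 rose (median 0.60), beside 0.22% of all probe sets called. None was called lower with any treatment. Mcpt10, a granule protease of the chymase locus, gave the largest of these rises. Its control arrays read 5.18, 5.62 and 5.75, against 7.30, 7.46 and 7.93 with perchlorate and 7.19, 7.40 and 7.75 with both. The rises were 2.05 (SE 0.34, adjusted p 0.00168) and 1.93 (adjusted p 0.00111), with no overlap. Mcpt10 was also called at day 1 with both treatments (1.62, adjusted p 0.0281), beside 0.601% of all probe sets called there. That call held under only 5 of 14 alternatives. It was lost without any 1 of replicates 2 and 3 and control replicates 21, 22 and 24 (adjusted p 0.0638 to 0.159). It was lost too with a pseudocount of 64, with no filter, when the 2 arrays that stood apart were dropped, and when only the groups compared were fitted (adjusted p 0.0535 to 0.0946).

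A further 3 genes of this list rose in both perchlorate groups of day 14. Tal1, a transcription factor of blood and mast cell lineages that endothelium also makes, rose by 0.93 (adjusted p 0.00554) with perchlorate and 1.13 (adjusted p 0.00052) with both. Hpgds, which makes prostaglandin D2, rose by 0.99 (adjusted p 0.0281) and 1.23 (adjusted p 0.00322). Slc45a3, a solute carrier, rose by 0.92 (adjusted p 0.0248) and 0.85 (adjusted p 0.0206). The Tal1 and Mcpt10 calls at day 14 held under all 14 alternatives. The Hpgds call with both treatments also held under all 14, and that with perchlorate under 8 of 14. It was lost without any 1 of perchlorate replicates 39, 40 and 42 and control replicates 43 and 47 (adjusted p 0.0788 to 0.162) and with no filter (adjusted p 0.0538). That of Slc45a3 with perchlorate held under 9 of 14. It was lost without perchlorate replicates 40 or 42 or control replicates 44 or 47 (adjusted p 0.0651 to 0.159) and in a fit of only the groups compared (adjusted p 0.0542). The Slc45a3 call with both was lost without combined replicate 30 or control replicates 44 or 47 (adjusted p 0.0777 to 0.115).

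Mcpt1l1, a protease gene related to Mcpt1, read 8.27, 8.92 and 9.07 in control and 9.92, 10.28 and 11.47 with perchlorate. It rose by 1.81 (adjusted p 0.0266) there, and differed by 0.49 (adjusted p 0.608) with both treatments. Without perchlorate replicate 42 the first value was 1.35 (adjusted p 0.205), and the call was lost too without control replicates 43, 44 or 47 (adjusted p 0.0549 to 0.137). Gata2, the lineage factor named above, rose by 0.63 (adjusted p 0.049) with both and differed by 0.53 (adjusted p 0.166) with perchlorate. That Gata2 call held under only 5 of 14 alternatives. It was lost when any 1 of the 6 arrays was left out (adjusted p up to 0.152), on the deposited values, with median centring and with no filter (adjusted p 0.0659 to 0.114). Tpsb2, a second tryptase gene whose sequence is close to that of Tpsab1, differed by 0.87 (adjusted p 0.192) and 1.06 (adjusted p 0.0511). Probe sets of such similar protease genes may share signal, so a change in 1 of them is uncertain as to its source.

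Of 12 genes of IgE receptor signalling, 11 were on the array and 8 passed the filter. At day 14, 2 of 8 rose with perchlorate (median 0.50), 4 of 8 with both (median 0.80) and 0 of 8 with the diet (median 0.43), beside 3.57%, 8.85% and 0.22% of all probe sets called in either direction. Fcer1g, the gamma chain that the IgE receptor shares with Fc receptors of macrophages, read 8.41, 8.97 and 9.03 in control, 9.65, 9.73 and 10.14 with perchlorate and 10.26, 10.37 and 10.84 with both. It rose by 1.04 (SE 0.26, adjusted p 0.0241) and 1.69 (adjusted p 0.000268), and every combined array lay above every perchlorate array. Inpp5d, a lipid phosphatase that restrains the receptor, rose by 0.87 (adjusted p 0.0393) and 1.18 (adjusted p 0.00234). The kinases Lyn (0.80, adjusted p 0.0113) and Fyn (0.94, adjusted p 0.0202), which act next to the receptor, rose with both treatments. Which cells the rises of these signalling genes came from was not tested.

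The Fcer1g call with perchlorate was lost without perchlorate replicates 39 or 42 or control replicate 44 (adjusted p 0.0627 to 0.157), and the calls of Fcer1g and Inpp5d with both treatments held under all 14 alternatives. The Inpp5d call with perchlorate held under only 6 of 14. It was lost without perchlorate replicates 39 or 42 or any control replicate (adjusted p 0.0563 to 0.223), on the deposited values, with no filter and in a fit of only the groups compared (adjusted p 0.0584 to 0.0719). The Lyn call was lost without control replicate 43 (0.74, adjusted p 0.0552), and the Fyn call without combined replicates 27 or 30 or control replicate 43 (adjusted p 0.0673 to 0.108). The other Fyn probe set past the filter was not called with both treatments (0.79). The 6 genes of histamine breakdown and histamine receptors listed were all on the array, and 0 passed the filter, so nothing can be said of them at this signal.

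Of 13 growth and recruitment signals for mast cells, 11 were on the array and 5 passed the filter, with 1 called at day 14 with perchlorate, 2 with both and 0 with the diet, beside 3.57%, 8.85% and 0.22% of all probe sets. Ccl2, a chemokine that draws monocytes and mast cell precursors, read 6.07, 6.52 and 7.12 in control, 7.71, 7.76 and 8.28 with perchlorate and 7.98, 8.04 and 9.13 with both. It rose by 1.35 (SE 0.30, adjusted p 0.0137) and 1.81 (adjusted p 0.000638). The first call was lost without perchlorate replicate 42 (1.17, adjusted p 0.0932), control replicate 44 (1.10, adjusted p 0.0955) or control replicate 47 (1.32, adjusted p 0.0509). Kitlg, which encodes stem cell factor, the ligand of Kit, read 9.55, 9.75 and 9.82 in control and 10.39 to 10.88 on all 9 treated arrays. It rose by 0.93 with both (adjusted p 0.018) and differed by 0.81 with perchlorate (adjusted p 0.0693) and 0.84 with the diet (adjusted p 0.168). The Kitlg call was lost without control replicate 47 (0.85, adjusted p 0.0758) or combined replicates 27 (0.80, adjusted p 0.108) and 30 (0.93, adjusted p 0.0594), and on the deposited values (0.95, adjusted p 0.0514). The other Kitlg probe set past the filter was not called with both treatments (0.89).

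**Figure D4:**
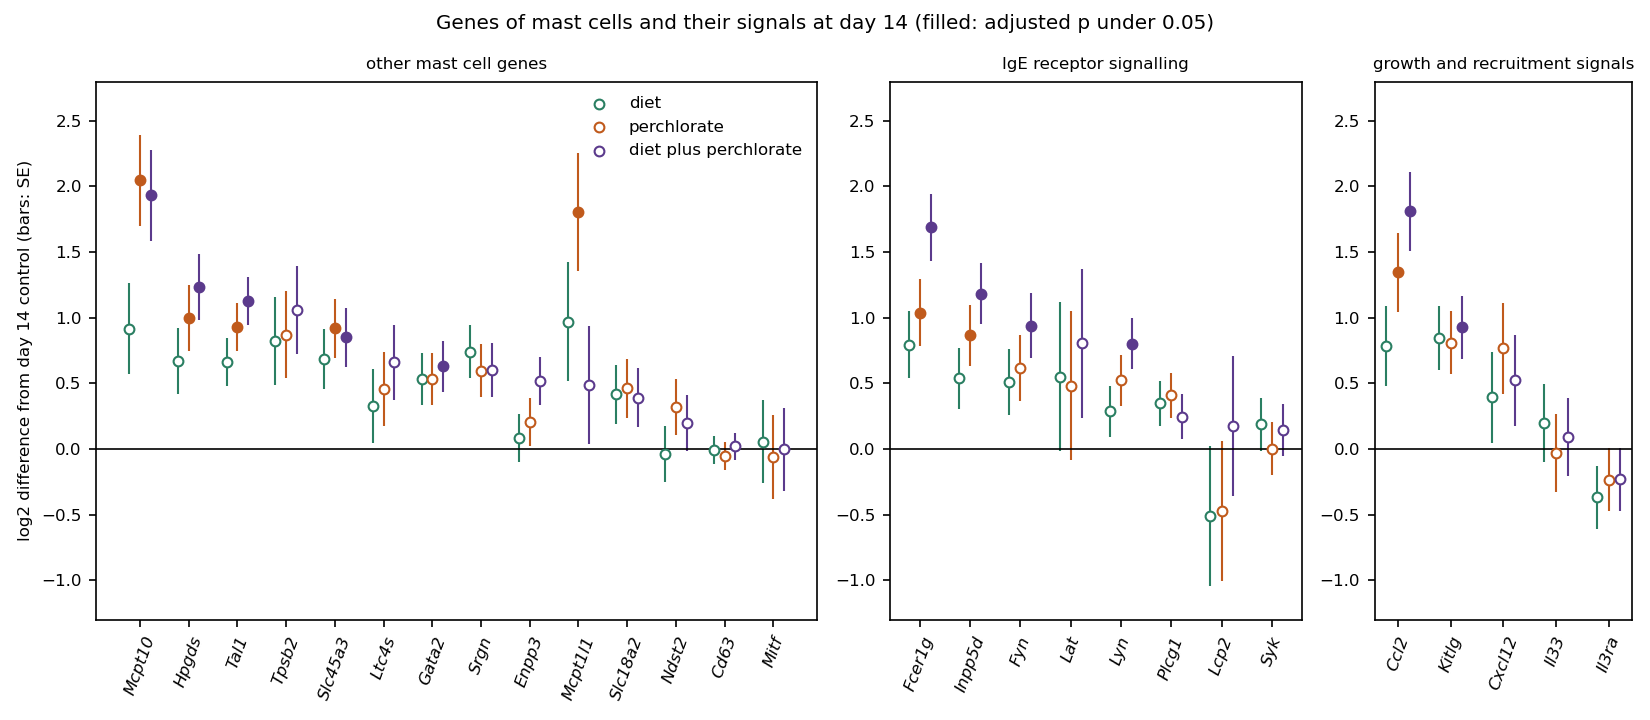
Log2 difference from the day 14 control (y axis, bars are SE) for the genes past the filter in 3 lists: 14 other mast cell genes, 8 of IgE receptor signalling and 5 growth and recruitment signals; filled points have an adjusted p under 0.05. Filled points are all above 0, and none belongs to the diet alone.

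Markers of other cell types also moved at day 14. The 10 macrophage markers, all past the filter, had a summed intensity of 1634 to 2189 on the control arrays, 3046 to 5642 with perchlorate, 4317 to 6232 with both and 3200 to 4170 with the diet, without overlap between treated and control. Of these 10, 3 rose with perchlorate, 8 with both and 1 with the diet, beside 3.57%, 8.85% and 0.22% of all probe sets called. The summed intensity of the 7 mast cell genes was 988 to 1413 in control, 1832 to 6299 with perchlorate, 1709 to 3399 with both and 1498 to 2958 with the diet.

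Some stromal markers rose as well. The 5 endothelial markers summed to 6148 to 9108 in control, 10576 to 15540 with perchlorate, 14464 to 16026 with both and 9642 to 12851 with the diet. Of them, 2 of 5 rose with perchlorate and 3 of 5 with both. The 6 fibroblast markers summed to 17003 to 27271 in control and 27095 to 39895 with perchlorate, which overlap by 1 pair of arrays. They summed to 29123 to 37358 with both and to 23194 to 31624 with the diet. Of them, 3 of 6 rose with perchlorate and 4 of 6 with both, against the same 3.57% and 8.85% of all probe sets.

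Lymphocyte markers, 3 of 8 past the filter, were also higher on every treated array of day 14 than on the controls of that day. They summed to 483 to 542 in control, 708 to 937 with perchlorate, 713 to 3807 with both and 559 to 1870 with the diet. At day 1 they summed to 538 to 886 in control and to 574, 3871 and 8359 on the perchlorate arrays. The last of these lies above the highest mast cell sum. The 3 thymocyte markers, of which 0 passed the filter, summed to 47 to 59 in control, 63 to 107 with perchlorate, 82 to 514 with both and 55 to 205 with the diet at day 14. At day 1 the thymocyte sums were 43 to 83 in control and 57, 300 and 1451 on the perchlorate arrays.

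Markers of granulocytes, which share genes with mast cells, were dim on most arrays. The 6 markers of basophils, eosinophils and neutrophils, of which 1 passed the filter, summed to 59 to 92 in control and 74 to 95 with perchlorate at day 14. With both treatments the sums ran from 84 to 874. The basophil protease Mcpt8 did not pass the filter, and its difference with perchlorate was 0.00037.

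Markers of other cell types were lower on the treated arrays of day 14. The 5 markers of C cells, which make calcitonin, summed to 26955 to 30751 in control, 15190 to 25887 with perchlorate, 14878 to 23992 with both and 21513 to 25029 with the diet, without overlap, and 3 of 5 fell with both, against the 8.85% called. The 1 parathyroid marker past the filter read 15902 to 17136 in control, 14090 to 14571 with perchlorate, 11350 to 15734 with both and 14147 to 15424 with the diet. Adipocyte markers, 4 of 5 past the filter, summed to 2100 to 3547 in control and 803 to 1181 with both, while the perchlorate arrays at 600 to 3017 and the diet arrays at 1447 to 4135 overlapped the controls. Skeletal muscle markers summed to 157 to 28047 over the 24 arrays. No marker was at exactly 0 on any array, and the part of all these cell types in the mast cell results was not tested.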

How the data were processed

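The authors deposited linear signal intensity per probe set, made with GCOS (per the submitters' processing notes); its version, the scaling and the detection calls are not given in the sources used here. From these values log2(intensity + 16) was computed from the deposited intensity, and the 24 arrays were quantile-normalized because their medians ran from 6.63 to 7.19. The 57 control probe sets were left out of tests, and a filter at the 40th percentile of mean signal left 18625 of 31042. The fit used limma 3.58.1 (R 4.3.3) with a mean for each group and a spread shared by the 24 arrays, with eBayes and a mean-variance trend; 21 contrasts were tested two-sided. The pseudocount understates the change of dim probe sets. Kit came from a fit without the filter.

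Of the probe sets, 20826 carried 1 gene symbol, 436 several and 9780 none. All 122 listed genes found on the array, of 142 listed, matched a RefSeq table of assembly GRCr8 by Entrez number. The text names all members, each listed gene called against its same-day control (otherwise up to 4 with the smallest p), and the 5 genes most correlated with each member. Tpsb2, which was not called, was named outside that rule. Fewer of the uncalled list genes were printed, and the marker genes and arrays singled out were chosen after their values were seen. Members and lists were chosen with earlier results of these data known. Alternatives were the deposited scale, median centring, other pseudocounts, no filter, array weights, the other Ms4a2 probe set, fits of only the groups compared, and leaving out arrays; applying these to listed genes and to other comparisons was added after seeing the data. The code was tested on simulated data.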

Additional observations from a re-analysis of the deposited data

How the results depend on the processing

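Most values kept direction and side of the threshold: of 895 single-gene values under the alternatives 782 did, 77 lost a call, 16 gained one and 20 changed sign. Many of the 895 belonged to differences with no call to lose. The 77 are thus a larger share of the values that had a call than of the 895. The number of members called with perchlorate at day 14 (1) was 3 on the deposited values, 4 with array weights, 3 without the 2 arrays that stood apart and 2 with only the groups compared, and 0 to 2 when 1 array was left out. With both treatments at day 14 (1) it was 3 with array weights, 4 with only the groups compared and 1 to 2 with 1 array left out. With perchlorate averaged over diets (1) it was 3, 2 and 1 to 2 in that order. The diet at day 14 (0) gave 1 with only the groups compared. The diet added to perchlorate at day 1 (0) gave 2 on the deposited values and 1 with array weights. Day 14 against day 1 with perchlorate (5) gave 0 with only the groups compared and 2 to 6 with 1 array left out. With both treatments (1) it gave 0 with a pseudocount of 1 and 0 to 1 with 1 array left out.

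All 20 sign changes were in day 1 differences that were not called before or after. For Cpa3 with the diet the value was 0.13 on the deposited values, 0.036 with median centring and 0.058 without the 2 arrays that stood apart. For Cma1 with perchlorate it was -0.017 with array weights and -0.13 without the 2 arrays, and the other Ms4a2 probe set gave -0.19 with both treatments. When 1 array was left out, the diet gave -0.61 to 0.29 for Cpa3, -0.025 to 0.71 for Cma1 and -0.39 to 0.49 for Fcer1a. Perchlorate gave -0.026 to 0.54 for Tpsab1, -0.075 to 0.31 for Cma1, -0.49 to 0.039 for Ms4a2 and -0.48 to 0.097 for Fcer1a, and both treatments gave -0.0099 to 0.15 for Hdc. The cause was not tested, except that fits of only the groups compared hold fewer arrays.

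No paired analysis was possible because each replicate number occurs in 1 group only. Signal over background is unknown for single probe sets, which limits Kit, Tpsab1 and Hdc most.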
